A study of Arvicanthis niloticus with 59 samples.

Results

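The testis of Arvicanthis niloticus, the Nile grass rat, was represented by 1 library, and its transcripts were set against 54 libraries of 21 other organs. The testis came from the animal named T424, which gave no other library, so organ and animal cannot be told apart and no spread among testes can be given. The other libraries came from the animals T3F (38 libraries), T173F (12) and T426 (4). T3F and T173F each gave an ovary, so most of the other libraries came from females. Sex can therefore not be told apart from organ and animal either. Per the labels all tissue was healthy and untreated; strain, genotype and age are not given in the labels used here. Another 4 libraries of T426, labelled retina, hippocampus, femur and sciatic nerve, held testis transcripts and were left out, so that 55 of the 59 libraries entered, 1 of them testis. All libraries were made from polyadenylated RNA of whole tissue pieces, in which fewer cells of a type and less RNA per cell cannot be told apart.

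In the seminiferous tubules of the testis, spermatogonia divide by mitosis, spermatocytes pair and recombine their chromosomes in meiosis, and haploid round spermatids then elongate into sperm. During elongation histones are replaced first by transition proteins and then by protamines, the acrosome forms over the nucleus, and the tail is built around an axoneme with outer dense fibres and a fibrous sheath. Sertoli cells nurse the germ cells inside the tubule, smooth-muscle-like myoid cells surround it, and Leydig cells between the tubules make androgens and insulin-like peptide 3. Results are given below in the order of germ cell development, followed by the somatic cells.

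The testis library was the shallowest of all, with 678819 expected counts (the estimated read numbers that RSEM assigns to genes), against 1573234 to 41309569 in the other libraries (median 16661804). In testis 10897 genes reached 1 TPM (a level scaled to gene length and library size), against 6703 to 15324 in the others (median 13891.5). A total of 5655 tested genes (31.2%) had 0 counts in testis, and at this depth a count of 0 allows a share of up to 4.42 CPM (counts scaled to library size). Levels in testis are therefore given with their count and an exact 95% Poisson interval, which covers counting error only. TPM of different genes should be compared with care, because the length that TPM divides by was very short for some genes. The 10 genes with the highest TPM in testis held 29.6% of its TPM but 2.93% of its counts.

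The label was checked against 3 genes of late germ cells. Prm2, a protamine that packs sperm DNA, stood at 9211 TPM in testis (4403 counts, 95% interval 8942 to 9488), and at a lowest, median and highest of 0, 0 and 0.765 TPM in the other 54 libraries. Akap4, the main protein of the fibrous sheath of the sperm tail, stood at 3256 TPM in testis (1433 counts, 3090 to 3429), against 0, 0 and 0.937 TPM elsewhere. None of these 54 libraries overlapped testis for either gene, and the testis library carried the transcripts its label names. The lack of overlap was set in part by leaving out the 4 libraries with testis transcripts. In the left-out retina library Prm2 stood at 5373 TPM and Akap4 at 2528 TPM. Here and below, overlap and statements on other libraries concern these 54 only, unless stated. Hist1h2ba, a histone H2B form of the male germ line, was listed at 780.5 TPM, but this rested on 5 counts (253.3 to 1822 TPM). It was at 0 in the other 54 libraries. Its share of the counts in testis was 2130-fold that of 3 counts over all of them together, with the counting interval of testis not taken in. Its reference was short: a TPM of this gene rested on 0.00268 times as many reads as one of the median gene.

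Testis was compared with the 21 other organs across all genes, each organ entering once as the sum of its libraries, by edgeR's quasi-likelihood test with Benjamini-Hochberg adjustment. Calls needed an adjusted p under 0.05 together with a log2 fold change of 1 or more in either direction. The spread in this test is that among organs, so a call says that testis differs from the mean of the other organs beyond that spread, and nothing of other testes. Of the genes called higher below, 1217 lay above all 54 other libraries and the rest within their range. Of 18139 genes tested, 1997 (11.0%) were called higher in testis and 2043 (11.3%) lower, so that 49.4% of the calls were higher. This split depended on the scaling: it was 61.9% with RLE factors, 55.8% with upper quartile factors and 65.7% with library totals alone. The median log2 fold change over all tested genes was -1.93, and -0.57 when genes at 0 in one group were set to the bound that 3 counts give; RLE scaling moved it by 0.44 and upper quartile scaling by 0.23. Log2 fold changes of single genes and lists are to be read against this median.

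By size alone, 743 of the 18970 listed genes (3.92%) reached 1 TPM in testis and at least 4 times the level of the highest other library, and are called testis-enriched here. Of these, 655 were also called higher, 85 were not tested because of low counts and 3 were not called. In 81 of them all other libraries were at 0, and 111 had under 10 counts in testis. The enriched genes together made up 67.9% of the TPM in testis and 24.6% of its counts. Near the threshold, 20 genes had a ratio of 4 to 4.2 and 10 genes at 1 TPM or more had a ratio of 3.8 to 4. With the 4 left-out T426 libraries put back among the others, 32 genes were enriched instead of 743.

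**Figure D1:**
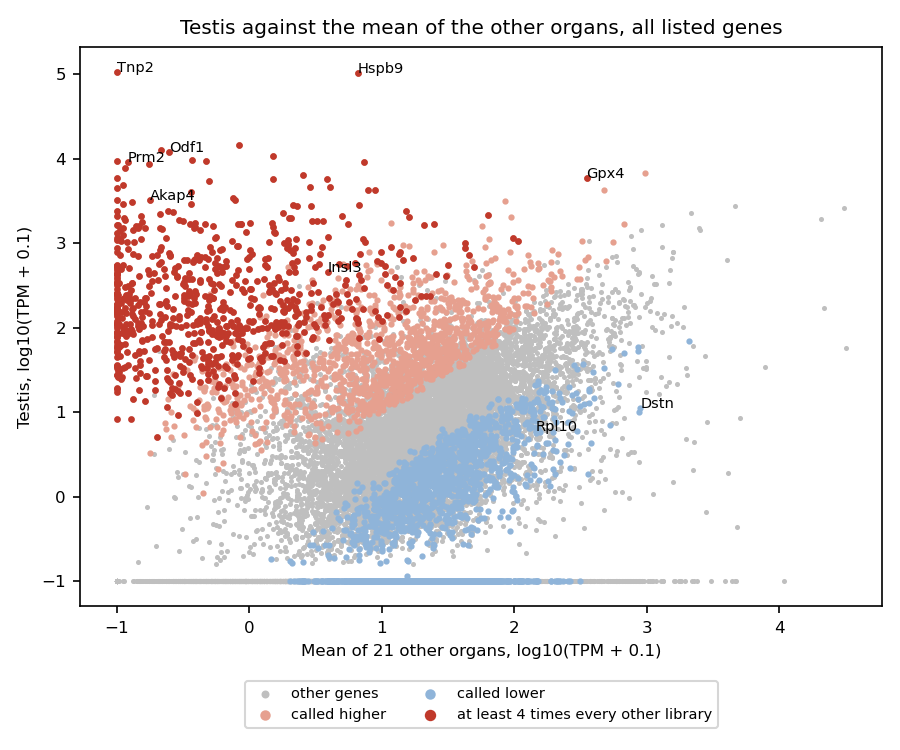
Level of every listed gene in testis (vertical) against its mean over the 21 other organs (horizontal), both as log10(TPM + 0.1); dark red marks the 743 testis-enriched genes, light red and blue the genes called higher and lower. Tnp2 and Hspb9 lie highest, at 104600 and 103600 TPM, and the row of points at the bottom holds genes at 0 in testis.

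Stem and progenitor spermatogonia left few transcripts at this depth. None of the 18 genes listed for undifferentiated spermatogonia was called by edgeR (1 had an unadjusted p below 0.05, and DESeq2 called 0), and 8 had 0 counts. Among these were Gfra1, the receptor subunit for the stem cell factor Gdnf, and Nanos2, an RNA-binding protein of stem cells. The highest member was Id4, an inhibitor of basic helix-loop-helix factors, with 71.1 TPM in testis (31 counts, 48.3 to 101), against 1.30, 97.4 and 1325 TPM elsewhere, and 33 other libraries lay above testis. The fitted median log2 fold change of the list, -4.41, became 1.45 with the genes at 0 set to their bound, so no direction can be read from it.

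In the list for differentiating spermatogonia, the largest log2 fold changes were those of Dmrtb1 and Tex101. Of 11 tested genes of this list 3 were called higher and none lower, with a median log2 fold change of 4.36. Dmrtb1, a DM-domain factor of the passage from mitosis to meiosis in mouse, stood at 1433 TPM in testis (151 counts, 1214 to 1680), against 0, 0 and 8.67 TPM elsewhere, a log2 fold change of 12.90 ± 1.02 (SE from the quasi-likelihood F; adjusted p = 1.65e-09, edgeR). Tex101, a germ cell surface protein, stood at 625.9 TPM in testis (145 counts, 528.3 to 736.4), against 0, 0 and 3.14 TPM elsewhere, a log2 fold change of 12.03 ± 1.26. Neither gene overlapped with any of the 54 libraries, while Dmrtb1 stood at 1607 TPM in the left-out retina library. The third call, Sohlh1, a transcription factor of differentiating spermatogonia, rested on 4 counts and was lost when any of 10 single organs was left out. Kit, the receptor that drives this step, had 1 count, and Stra8, which is needed for meiotic entry, had 7 counts at 21.9 TPM in testis, below the 68.0 TPM of the Pancreas T173F library. Both were without a call. Ccnd2, another member, had 2 counts, and 53 other libraries lay above testis. For Dmrt1 (39 counts) and Sohlh2 (18 counts), 1 other library lay above testis. Whether the transcripts of this list came from differentiating spermatogonia or from other germ cells was not tested.

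Meiotic genes were higher in about as many cases as not. Of 26 tested genes of prophase and recombination 12 were called higher and 0 lower, with a median log2 fold change of 3.90 (4.64 with zeros at their bound). The calls included several, but not all, proteins of the synaptonemal complex, which holds paired chromosomes together; Sycp3 (81 counts, 56.1 TPM) and Tex12 (9 counts, 4.80 TPM) had none. Syce3, one of its central elements, stood at 313.0 TPM in testis (38 counts, 221.5 to 429.7), against 0, 0 and 8.18 TPM elsewhere, a log2 fold change of 9.69 ± 1.28. Stag3, a cohesin subunit of meiosis, stood at 102.0 TPM (350 counts, 91.6 to 113.3), against 0, 0.0802 and 1.15 TPM elsewhere, a log2 fold change of 10.30 ± 1.05 (adjusted p = 9.52e-08, edgeR). Both genes lay above every other library.

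Rec8, another meiotic cohesin subunit, was called with a log2 fold change of 6.93 ± 0.59, but its 191.5 TPM in testis (173.3 to 211.0) lay close to the 165.8 TPM of the Harderian gland, a lipid gland behind the eye. Sycp1, which forms the transverse filaments of the synaptonemal complex, reached 111.0 TPM in testis (27 counts), against at most 3.78 TPM elsewhere. Members of the list differed widely in level. Hormad1, a protein of the meiotic chromosome axis, stood at 133.6 TPM in testis (32 counts), against at most 30.4 TPM elsewhere, and was called higher, as was Spata22 (4 counts), a recombination factor. Spo11, which cuts the DNA to start recombination, had 0 counts, as had Tex11 and Rad21l, and Meiob had 1. Dmc1, the strand exchange protein of meiosis, had 8 counts at 23.0 TPM in testis, against 0, 0.168 and 1153 TPM elsewhere, where the highest value was again that of Pancreas T173F.

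Genes of pachytene spermatocytes and of the piRNA pathway, which silences transposons with small RNAs, came next. Of 22 tested genes 16 were called higher and 0 lower, with a median log2 fold change of 7.34. Of the 22, 10 were testis-enriched, beside 3.92% of all listed genes. Mael, a factor of piRNA production, stood at 2273 TPM in testis (539 counts, 2085 to 2473), against 0, 0 and 19.9 TPM elsewhere, a log2 fold change of 11.83 ± 1.22. Piwil1, the PIWI protein that binds pachytene piRNAs, stood at 712.5 TPM in testis (373 counts, 642.0 to 788.5), against 0, 0 and 2.72 TPM elsewhere, a log2 fold change of 13.02 ± 1.30 (adjusted p = 7.39e-08, edgeR). For Mael the highest other library was Ovary T173F and for Piwil1 it was Ovary T3F, both far below testis.

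Tdrd6, a Tudor-domain protein of the chromatoid body, stood at 370.7 TPM in testis, against at most 4.72 TPM elsewhere, a log2 fold change of 11.69 ± 1.24. Ybx2, a Y-box protein that stores mRNA in germ cells, stood at 740.3 TPM in testis on 3747 counts, against 0, 4.48 and 31.4 TPM elsewhere, a log2 fold change of 7.96 ± 0.80. Hspa2, a heat shock protein of meiosis, was at 1608 TPM in testis and at 993.8 TPM in Kidney RenalPelvis T173F, so that it was called but not enriched. Among the genes without a call were Dazl (16 counts, 14.6 TPM), an RNA-binding protein of all germ cell stages, and Piwil2 (53 counts, 10.5 TPM), another PIWI protein.

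**Figure D2:**
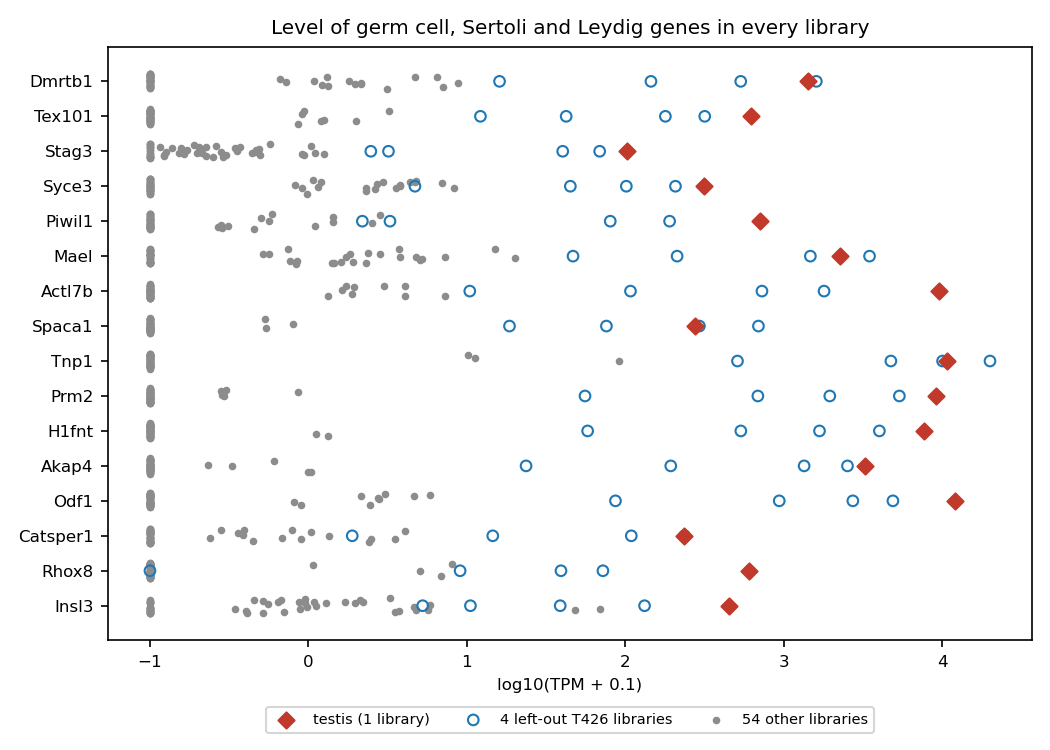
Level of 16 genes in each library as log10(TPM + 0.1), from spermatogonial genes at the top to a Sertoli and a Leydig cell gene at the bottom; red diamonds are testis, grey points the 54 other libraries and open circles the 4 left-out T426 libraries. Testis lies to the right of all grey points for each gene, while the open circles reach or pass it for Dmrtb1, Mael, Spaca1, Tnp1 and Catsper1. The genes drawn do not stand for all members of their lists. Of the members not drawn, Kit (1 count) had 50 other libraries above testis, Ccnd2 (2 counts) 53 and the Sertoli cell gene Trf (2 counts) 54. The Leydig cell genes Hsd3b1 and Lhcgr had 0 counts.

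Round spermatid genes were mostly higher in testis. Of 22 tested genes of round spermatids and the acrosome 19 were called higher and 0 lower, with a median log2 fold change of 5.94. Actl7b, an actin-related protein of spermatids, stood at 9553 TPM in testis (519 counts, 8749 to 10410), against 0, 0 and 7.15 TPM elsewhere, a log2 fold change of 15.72 ± 0.61 (adjusted p = 9.36e-15, edgeR). Spaca1, an acrosomal membrane protein, stood at 277.0 TPM in testis (41.6 counts, 201.7 to 378.3), against 0, 0 and 0.703 TPM elsewhere, a log2 fold change of 13.25 ± 0.84. Sun5, which fixes the sperm head to the tail, stood at 171.0 TPM in testis (88 counts), against at most 0.217 TPM elsewhere, a log2 fold change of 13.97 ± 0.99. For these 3 genes the groups did not overlap.

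Other members of this list were shared with other organs. Tssk2, a testis-specific serine kinase in mouse, stood at 418.3 TPM in testis (291 counts), against 0, 28.0 and 106.2 TPM elsewhere, a log2 fold change of 4.95 ± 0.33, just under the ratio of 4 to the highest library. Acr, the acrosomal protease, stood at 76.2 TPM in testis (137 counts), against 0, 1.22 and 230.5 TPM elsewhere, with the highest value in the optic nerve; its log2 fold change was 5.10 ± 1.47 (adjusted p = 0.0142, edgeR). Crem, the transcription factor that switches on spermatid genes in mouse, stood at 35.6 TPM in testis (93 counts), against 0, 11.3 and 101.5 TPM elsewhere, a log2 fold change of 2.35 ± 0.74, and its call was lost when the 54 libraries entered as columns of their own. Crem and Acr thus overlapped with other libraries, 3 of which lay above testis for each. Tssk3, another kinase of the family, and Calr3, a calreticulin of germ cells, had 0 counts.

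Spermatid chromatin genes had the highest summed TPM of all lists in testis, but with 10457 counts they held fewer reads than the 12360 of the sperm tail list. Their summed TPM was 144000 in testis, against a lowest, median and highest of 5.66, 74.3 and 547.2 in the other libraries. Of 11 tested genes 8 were called higher and 1 lower, with a median log2 fold change of 14.72. Tnp2, a transition protein, alone made up 104600 TPM in testis (2968 counts, 100900 to 108500) and was at 0 in all other libraries. Its share of counts was 1264000-fold that of 3 counts over all of them. Its reference was short: a TPM of this gene rested on 0.0119 times as many reads as one of the median gene. Tnp1, the other transition protein, stood at 10770 TPM in testis (866 counts, 10070 to 11510), against 0, 0 and 90.7 TPM elsewhere, a log2 fold change of 14.72 ± 1.30 (adjusted p = 9.66e-09, edgeR).

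The protamines and linker histones of spermatids followed. Prm2, whose levels open the results, had a log2 fold change of 19.34 ± 0.72 (adjusted p = 4.8e-15, edgeR). Prm3, a further protamine-family gene, stood at 8739 TPM in testis (245 counts, 7680 to 9905), against 0, 0 and 1.56 TPM elsewhere, a log2 fold change of 16.32 ± 0.64. H1fnt, a linker histone of elongating spermatids, stood at 7669 TPM in testis (803 counts, 7148 to 8218), against 0, 0 and 1.22 TPM elsewhere, a log2 fold change of 17.96 ± 0.39 (adjusted p = 4.11e-19, edgeR). All of these lay far above each other library.

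Actl9, an actin-related protein of the sperm head, stood at 1634 TPM in testis (576 counts), against at most 0.277 TPM elsewhere, a log2 fold change of 17.74 ± 0.40. Hils1, a further spermatid linker histone in mouse, was different: at 411.5 TPM in testis (139 counts) it lay below the 456.1 TPM of the optic nerve, and its adjusted p of 0.0498 (edgeR) was lost when any of 15 single organs was left out. The gene called lower was Rnf8, a ubiquitin ligase of histone removal in mouse, with 3 counts and 1.38 TPM in testis, against 0.617, 10.8 and 37.1 TPM elsewhere, a log2 fold change of -1.91 ± 0.63 (adjusted p = 0.0329, edgeR). This call was lost with RLE or upper quartile scaling and with DESeq2. Hist1h1t, the linker histone of spermatocytes, had 3 counts and no call.

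Sperm tail genes were called higher almost throughout: 25 of 26 tested, with none lower and a median log2 fold change of 7.58. Odf1, the main protein of the outer dense fibres, stood at 11990 TPM in testis (1320 counts, 11350 to 12650), against 0, 0 and 5.78 TPM elsewhere, a log2 fold change of 16.54 ± 0.93 (adjusted p = 5.35e-12, edgeR). Akap4 had a log2 fold change of 16.86 ± 1.01. Akap3, its partner in the fibrous sheath, stood at 1977 TPM in testis (774 counts, 1840 to 2121), against 0, 2.0 and 13.0 TPM elsewhere, a log2 fold change of 11.29 ± 0.68. Ropn1, which binds both anchoring proteins, stood at 1513 TPM in testis (178 counts, 1299 to 1753), against at most 1.10 TPM elsewhere, a log2 fold change of 15.84 ± 0.48. None of these 4 genes overlapped with another library.

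Some members of the tail list were shared with other organs. Cfap43, an axonemal protein, stood at 34.1 TPM in testis (220 counts, 29.7 to 38.9), against 0.263, 14.4 and 132.3 TPM elsewhere, a log2 fold change of 2.08 ± 0.48. The highest value was that of Ovary T173F, and 3 libraries lay above testis. Among 21 tested genes of motile cilia shared with the airway, 10 were called higher and 0 lower, with a median log2 fold change of 3.92. Tekt1, a tektin of axonemal microtubules, stood at 1193 TPM in testis (665 counts, 1104 to 1287), against 0, 0.193 and 82.8 TPM elsewhere, a log2 fold change of 9.74 ± 1.58. Rfx2, a transcription factor of ciliary and spermatid genes, stood at 108.3 TPM in testis (550 counts), against 0.160, 4.88 and 41.0 TPM elsewhere, a log2 fold change of 4.97 ± 0.57.

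Foxj1, the master regulator of airway cilia, was at 26.2 TPM in testis (83.4 counts) without a call. Dnah11 had 0 counts, Dnah5 had 1 and Dnah9 had 2; all 3 encode outer arm dynein heavy chains of airway cilia. The sperm form Dnah8 stood at 88.3 TPM in testis (250 counts), against 0, 0.0474 and 14.2 TPM elsewhere, and was called higher. Airway outer arm dyneins were thus near 0 in the testis library while the sperm dynein was not.

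Genes of sperm-egg contact and of sperm ion channels were called higher in 18 of 25 cases and lower in 0, with a median log2 fold change of 6.50. Adam5, a sperm surface disintegrin, stood at 220.2 TPM in testis (182 counts, 189.4 to 254.6), against 0, 0 and 0.516 TPM elsewhere, a log2 fold change of 14.65 ± 0.75 (adjusted p = 8.63e-13, edgeR). Plcz1, the phospholipase that sperm bring into the egg to activate it, stood at 83.3 TPM in testis (44.5 counts, 61.4 to 112.6), against at most 0.245 TPM elsewhere, a log2 fold change of 12.69 ± 1.15. Catsper1, a pore subunit of the sperm calcium channel, stood at 234.3 TPM in testis (72 counts, 183.3 to 295.0), against 0, 0 and 3.96 TPM elsewhere, a log2 fold change of 10.33 ± 1.30. For all 3 genes testis lay above every other library.

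Atp1a4, the sodium pump form of sperm, stood at 666.8 TPM in testis (519 counts), against 0, 0.288 and 25.5 TPM elsewhere, a log2 fold change of 10.05 ± 1.27. Izumo1, the sperm protein that binds the egg, stood at 9.73 TPM in testis (65 counts), against 0, 0.358 and 8.08 TPM elsewhere. It was called higher, but the largest other value, in the colon, lay within the counting interval of testis (7.51 to 12.4). Hvcn1, the proton channel of human sperm, had 0 counts.

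**Figure D3:**
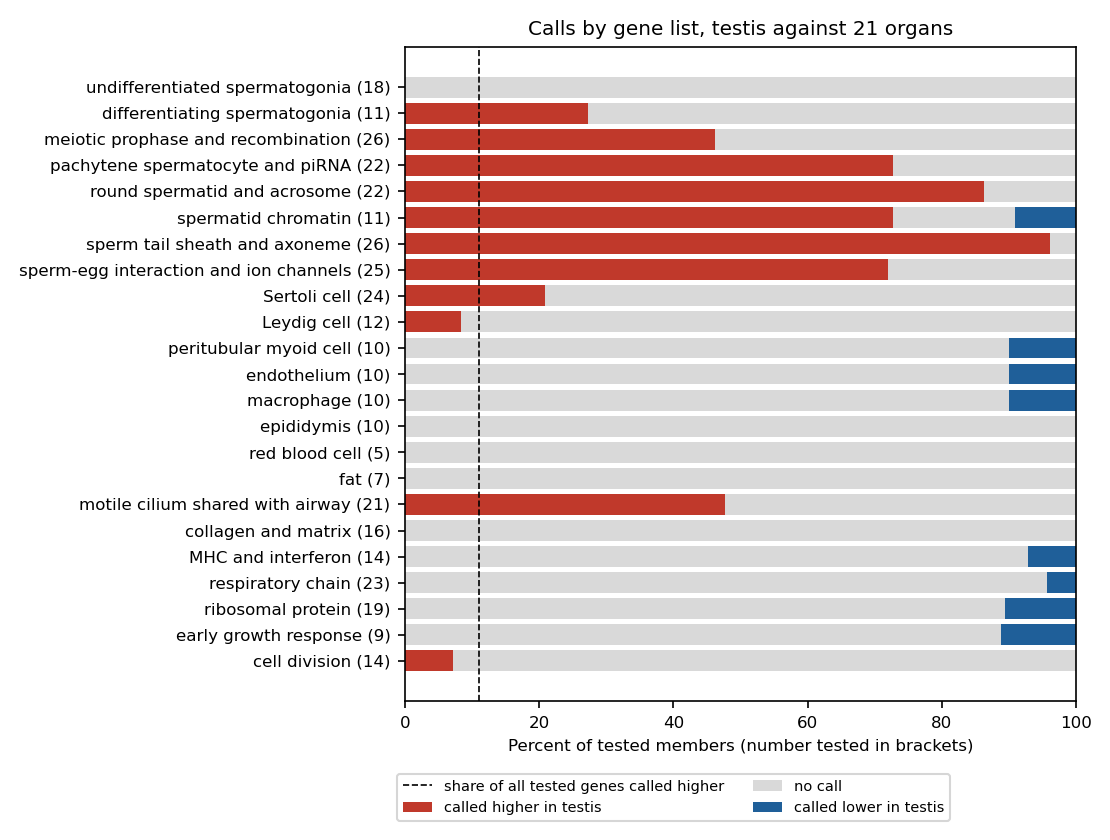
Share of tested members of each gene list called higher in testis (red), lower (blue) or without a call (grey), in percent, with the number tested in brackets; the dashed line is the 11.0% of all tested genes called higher. The share called higher is 0 for undifferentiated spermatogonia and largest for the sperm tail list, while the somatic and general lists lie near or below the dashed line, except Sertoli cells and motile cilia.

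The 20 testis-enriched genes with the highest TPM included genes outside the lists. Hspb9, a small heat shock protein of the testis, stood at 103600 TPM in testis (4081 counts, 100500 to 106800), against 0, 5.21 and 37.1 TPM elsewhere, a log2 fold change of 15.12 ± 0.70; its reference was also short, with 0.0165 times as many reads per TPM as the median gene. Spz1, a spermatogenic leucine zipper protein, stood at 4831 TPM in testis (561 counts, 4439 to 5247), against at most 0.961 TPM elsewhere, a log2 fold change of 17.41 ± 0.44 (adjusted p = 3.05e-18, edgeR). Hmgb4, a germ cell HMG-box protein, and Iqcf5 were at 0 in every other library and at 9253 and 5914 TPM in testis. Their shares of counts were 174200-fold and 74110-fold that of 3 counts over all other libraries. Gpx4, a selenium enzyme that hardens the midpiece of sperm, stood out for being used by all organs: 5888 TPM in testis (3774 counts, 5702 to 6078), against 16.9, 384.9 and 1078 TPM elsewhere, a log2 fold change of 5.20 ± 0.50.

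Germ cells replace several common proteins by forms of their own, often from genes that lack introns. Of 27 such pairs the germ cell form was called higher in 19, and the general form was called lower in 4 and higher in 1. Among all tested genes 11.0% were called higher and 11.3% lower, and the share of general forms called lower was near the latter. The calls therefore do not set the general forms apart as lower in testis. The germ cell form made up over 50% of the summed TPM of its pair in 24 pairs in testis, and in 21 pairs this share lay above that of every other library. RSEM divides reads between similar transcripts, so the shares of closely similar pairs are uncertain. The shares also compare TPM of different genes, and so depend on the length that each TPM divides by. Among the 24 pairs, the general form had more counts in testis for Cstf2t (7 against 31.9) and Hist1h2ba (5 against 29.3). The same held for Slc25a31 (10 against 12) and Pdilt (158 against 169), while Taf7l and Taf7 had 4 each.

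Among enzymes of glycolysis, Ldhc, the sperm lactate dehydrogenase, stood at 1726 TPM in testis (509 counts, 1579 to 1882), against 0, 0 and 23.8 TPM elsewhere, a log2 fold change of 11.84 ± 1.27. It made up 94.0% of the summed TPM of Ldhc and Ldha in testis (509 against 355 counts), against at most 14.5% elsewhere. Gapdhs, the sperm glyceraldehyde-3-phosphate dehydrogenase, stood at 318.1 TPM in testis (2540 counts), against 0, 1.13 and 8.15 TPM elsewhere, a log2 fold change of 8.73 ± 0.65, and made up 94.5% of its pair in testis, against at most 19.2% elsewhere. Pgk2, the sperm phosphoglycerate kinase, made up 99.4% of its pair in testis, but it was also at 639.7 TPM in Pancreas T173F, against 918.1 TPM in testis, and its adjusted p of 0.046 (edgeR) was lost when any of 19 single organs was left out. The general forms Ldha, Gapdh and Pgk1 stood at 110.2, 18.6 and 5.15 TPM in testis, with 6, 1 and 1 of the other libraries below testis, and none of the 3 was called.

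Other pairs showed the same order. Cetn1, a centrin of the sperm centriole, stood at 2231 TPM in testis (124 counts, 1855 to 2659), against at most 14.1 TPM elsewhere, a log2 fold change of 14.49 ± 0.75. Cetn2 had 0 counts in testis, but it was also low elsewhere, at 0, 4.39 and 17.3 TPM, and was not called. Tuba3a, an alpha-tubulin, stood at 2425 TPM in testis (3356 counts), against 0.413, 12.2 and 95.4 TPM elsewhere, a log2 fold change of 8.52 ± 0.35 (adjusted p = 2.28e-14, edgeR), and made up 83.4% of its pair with Tuba1a in testis, against at most 15.5% elsewhere. Ppp3r2, the sperm form of the calcineurin regulatory subunit, made up 98.8% of its pair in testis, against at most 0.871% elsewhere, with a log2 fold change of 13.54 ± 0.79.

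In mouse, Rpl10l replaces the X-linked ribosomal protein gene Rpl10 in male germ cells. Rpl10l made up 96.9% of the pair in testis (39 counts), against at most 12.6% elsewhere. Rpl10 itself stood at 5.93 TPM in testis (22 counts, 3.72 to 8.98), against 28.8, 119.3 and 414.5 TPM elsewhere, a log2 fold change of -3.65 ± 1.10 (adjusted p = 0.019, edgeR), and testis lay below all 54 libraries. Hist1h1c, a linker histone of most cells, stood at 14.8 TPM in testis (4 counts), against 18.8, 367.9 and 1658 TPM elsewhere, a log2 fold change of -3.78 ± 1.11. Pdha1, a subunit of pyruvate dehydrogenase whose gene is X-linked in mouse, had 0 counts in testis, against 2.36, 52.7 and 376.0 TPM elsewhere, and its autosomal germ cell form, Pdha2, stood at 321.1 TPM in testis (70 counts).

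**Figure D4:**
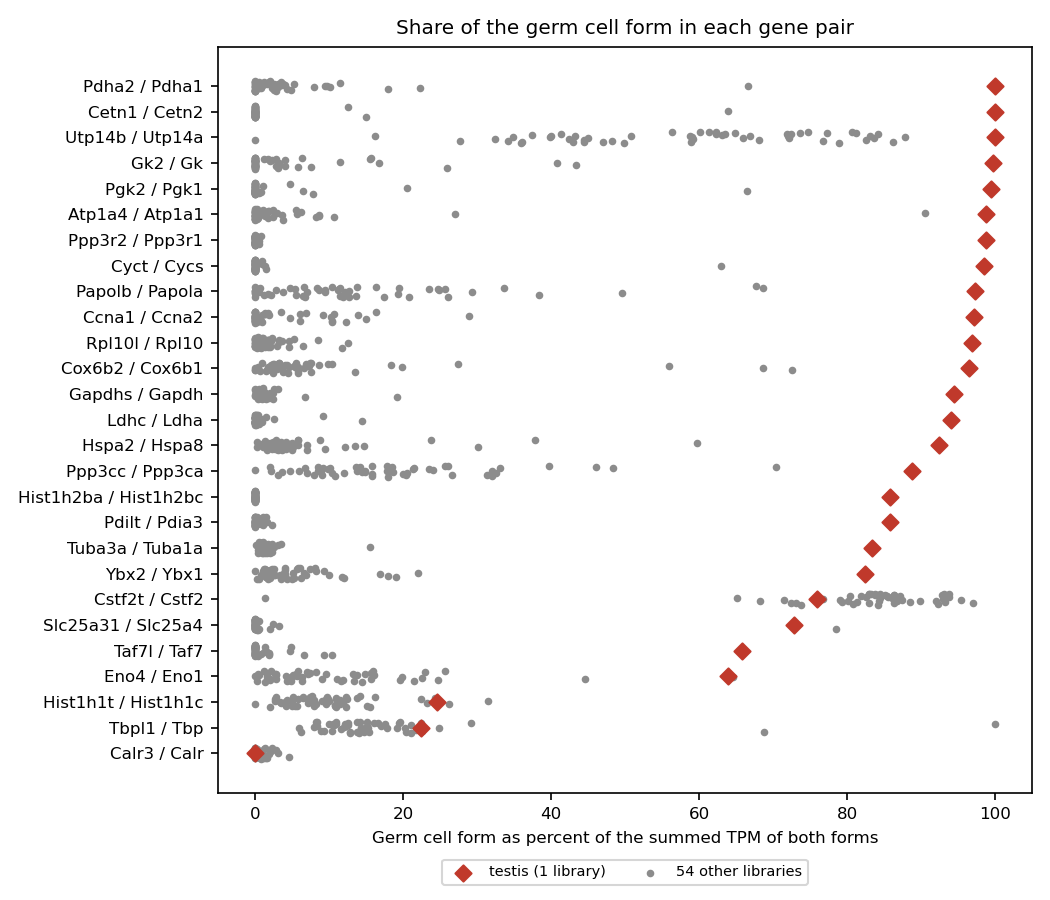
Germ cell form as a percent of the summed TPM of both forms of each of 27 gene pairs, in testis (red diamonds) and in the other libraries (grey points; libraries with neither form are not drawn). The share in testis is above 50% in 24 pairs; Cstf2t lies among the other libraries, and Hist1h1t, Tbpl1 and Calr3 lie below 50%.

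In 8 pairs the germ cell form was not called higher, and in 6 its share did not lie above every other library. Slc25a31, a mitochondrial ADP/ATP carrier, made up 72.8% of its pair in testis, against at most 78.6% elsewhere, and Eno4, an enolase of sperm, 63.9%, against at most 64.7%; neither was called. Cstf2t, a polyadenylation factor of male germ cells in mouse, made up 76.0% of its pair in testis, and 46 other libraries were at or above this share. Tbpl1, a relative of the TATA-binding protein that spermatids use, made up 22.4% of its pair, although both Tbpl1 and Tbp were called higher. Calr3 had 0 counts while Calr, the general form, stood at 225.3 TPM in testis, against 19.8, 291.7 and 701.8 TPM elsewhere, without a call.

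Somatic cells of the testis were seen through few genes. Of 24 tested Sertoli cell genes 5 were called higher and 0 lower, with a median log2 fold change of 1.43. Rhox8, a homeobox gene of Sertoli cells in mouse, stood at 604.9 TPM in testis (38 counts, 428.1 to 830.3), against 0, 0 and 7.99 TPM elsewhere, a log2 fold change of 11.67 ± 1.22 (adjusted p = 1.35e-07, edgeR). Cst12 and Cst9, cystatin-family genes of Sertoli cells in mouse, stood at 106.8 TPM (17 counts) and 79.1 TPM (26 counts) in testis, against at most 3.90 and 5.40 TPM elsewhere, with log2 fold changes of 9.56 ± 1.5 and 8.15 ± 1.72. Both calls were lost with DESeq2. Aard, a gene of Sertoli cells, stood at 469.5 TPM in testis (65 counts), against 0, 17.7 and 168.8 TPM elsewhere, a log2 fold change of 5.66 ± 1.21.

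The remaining Sertoli cell genes were used by other organs as well. Espn, an actin-bundling protein of the junctions between Sertoli cells and spermatids, stood at 67.3 TPM in testis (292 counts), against 0.403, 6.79 and 98.5 TPM elsewhere, a log2 fold change of 4.10 ± 0.83. Clu, a secreted chaperone, was at 196.6 TPM in testis (1144 counts), against 1.11, 80.9 and 1938 TPM elsewhere, without a call. Sox9 and Wt1, transcription factors of the Sertoli lineage, were at 32.8 TPM (24 counts) and 11.4 TPM (42 counts) in testis, and 6 and 8 other libraries lay above testis. Amh, the hormone of fetal and immature Sertoli cells, was at 54.8 TPM in testis (23 counts, 34.8 to 82.3), against 1144 TPM in Ovary T173F. Fshr, the receptor for follicle-stimulating hormone, had 2 counts and Gdnf had 0.

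Among 12 tested Leydig cell genes 1 was called higher and 0 lower, with a median log2 fold change of -2.39 (-1.22 with zeros at their bound). The called gene was Insl3, insulin-like peptide 3, with 450.9 TPM in testis (96 counts, 365.2 to 550.4), against 0, 0.385 and 69.3 TPM elsewhere, a log2 fold change of 8.62 ± 1.36 (adjusted p = 4.75e-05, edgeR). The highest other value was that of Ovary T173F. The share of Leydig cell genes called higher was no larger than the 11.0% of all tested genes. Genes of steroid synthesis were detected in part and had no call. Cyp17a1, which makes androgens, stood at 46.4 TPM in testis (64 counts), against 0, 0.593 and 670.0 TPM elsewhere, with 6 libraries above testis. Star, which carries cholesterol into mitochondria, stood at 25.4 TPM in testis (48 counts), against 0, 2.10 and 13780 TPM elsewhere, and Cyp11a1, which makes pregnenolone, at 13.0 TPM (31 counts), against 0, 0.646 and 7681 TPM elsewhere. Both were highest in Ovary T3F. Hsd3b1, Lhcgr and Srd5a1 had 0 counts.

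Markers of endothelium and macrophages had summed levels near the bottom of the range of organs. Their counts of calls were close to the 11.3% of all tested genes called lower. For endothelium, 1 of 10 tested genes was called lower and 0 higher, and the summed TPM was 56.1 in testis, against 25.7, 612.8 and 9634 elsewhere. For macrophages 1 of 10 was called lower and 0 higher, and the sum was 42.2 in testis, against 34.0, 807.9 and 12130 elsewhere. The genes called lower were Pecam1, an adhesion protein of endothelium, and Cd68, a lysosomal protein of macrophages, both with 0 counts in testis. Myoid genes were nearer the middle, with a sum of 211.1 TPM in testis, against 18.2, 447.0 and 43230 elsewhere; 1 of 10 was called lower (Tagln, with 0 counts) and 0 higher.

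Blood, fat and the neighbouring epididymis were checked as other sources. The summed TPM of red cell genes was 232.4 in testis, against 398.0, 2690 and 453700 elsewhere, and that of fat genes was 8.60 in testis, against 9.11, 260.2 and 61310 elsewhere. These are sums of TPM, of which testis-enriched genes took 67.9% in testis on 24.6% of its counts, which leaves less of the TPM total to every other gene there; its part in the low sums was not tested. Of 11 epididymal genes 8 had 0 counts, among them the lipocalins Lcn5, Lcn9 and Lcn12, while Cst8 had 30 counts (30.8 TPM), Lcn8 had 3 and Crisp1 had 2. The summed TPM of this list was 35.9 in testis, against 2.14, 21.4 and 390.7 elsewhere, with 17 libraries above testis.

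**Figure D5:**
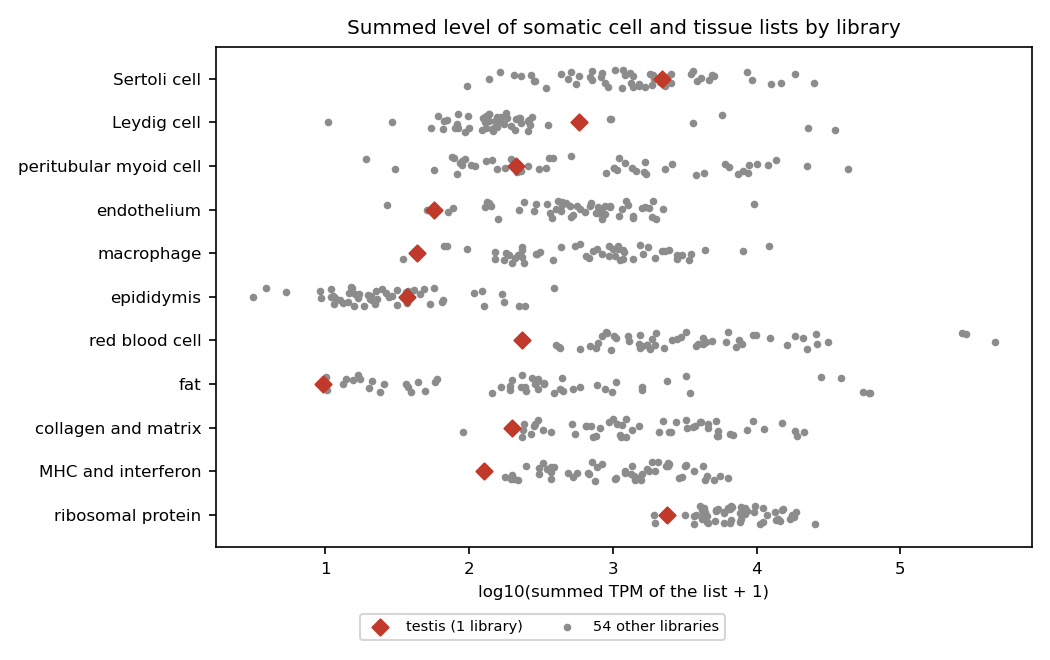
Summed level of the somatic and tissue gene lists in each library as log10(summed TPM + 1); red diamonds are testis and grey points the 54 other libraries. On this TPM scale testis lies below all other libraries for the red blood cell, fat, and MHC and interferon lists, and 17 libraries lie above it for the Sertoli cell list.

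General gene groups were mostly at the low end of the organs in their summed TPM. None of 16 collagen and matrix genes was called by edgeR (3 had an unadjusted p below 0.05, all with lower levels in testis, and DESeq2 called 7 lower), with a median log2 fold change of -5.35. In the MHC and interferon list 1 of 14 genes was called lower, with a median of -3.70 (-1.76 with zeros at their bound), and the summed TPM was 125.3 in testis, against 177.3, 1277 and 6317 elsewhere.

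Of 19 ribosomal protein genes 2 were called lower and 0 higher, with a median log2 fold change of -1.34, beside -1.93 for all tested genes, or -0.57 with zeros at their bound. With RLE factors, upper quartile factors or library totals alone, 1 was called lower. Of 23 respiratory chain genes 1 was called lower (Ndufa4, with 0 counts) and 0 higher, with a median of -0.89. Of 14 cell division genes 1 was called higher and 0 lower, with a median of 0.09. That gene was Aurka, a spindle kinase, with 89.0 TPM in testis (144 counts), against 0, 18.3 and 110.8 TPM elsewhere, a log2 fold change of 2.67 ± 0.73. Early growth response genes had 1 of 9 called lower and 0 higher. In all these general groups the shares called were near or below those of all tested genes (11.3% lower, 11.0% higher). The edgeR calls therefore do not set these groups apart. DESeq2 called more members lower in the collagen, MHC and interferon, ribosomal protein and respiratory chain lists. It also called more cell division genes higher, and as many early growth response genes lower as edgeR did.

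Genes called lower were also taken by their mean level elsewhere. Rsrp1, an arginine- and serine-rich protein, stood at 21.6 TPM in testis (20 counts, 13.2 to 33.4), against 2.50, 549.7 and 1426 TPM elsewhere, a log2 fold change of -3.62 ± 0.60 (adjusted p = 8.92e-05, edgeR). Cox7a2l, a factor of respiratory supercomplexes, stood at 50.4 TPM in testis (10 counts, 24.2 to 92.8), against 0, 792.2 and 1156 TPM elsewhere, a log2 fold change of -2.65 ± 0.52 (adjusted p = 0.000529, edgeR). Both were exceeded by 53 of the 54 other libraries. Ddx5, an RNA helicase, stood at 56.2 TPM in testis (147 counts), against 16.2, 496.1 and 1627 TPM elsewhere, a log2 fold change of -2.14 ± 0.69, and its call was lost with RLE scaling. Hist2h2bb, a histone H2B gene, rested on 2 counts in testis, against a median of 2070 TPM elsewhere, with a log2 fold change of -3.92 ± 1.10.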

How the data were processed

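RNA-seq libraries of healthy, untreated tissue were made from polyadenylated RNA with an Illumina TruSeq kit, per the labels' protocols. Deposited by the authors were 2 series-wide tables: RSEM expected counts per gene, which need not be whole (54.76% were), and TPM. The submitters' processing notes name RSEM and Bowtie 0.12.8; the sources used here give neither build nor annotation. Symbols are those of the tables; 14498 of 18970 matched RefSeq. No sequences are shown, since no table with them was given.

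Here the expected counts were rounded, summed to 21 organs beside testis and analysed with edgeR 4.0.16 in R 4.3.3 (TMM, filterByExpr, quasi-likelihood test, Benjamini-Hochberg). The method was tested on simulated data, in which only genes with an expected count above 5 in testis were changed. The shares below therefore do not cover genes with fewer counts. Of genes given a log2 fold change of 3 or 5 in testis, 30% and 68% were called. For -3 and -5 the shares were 18% and 24%. A gene without a call may thus still differ, above all where testis is lower. TPM served for levels, ratios and sums. Intervals are exact Poisson at 95%; the floor is 3 counts. DESeq2 1.42.0, limma 3.58.1, other scalings and sets of libraries were alternatives. Named genes were the 3 markers, the leading testis-enriched, high-ratio and lower genes, list members with high TPM or at 0, and gene pairs; other list members were named to show shared or absent groups after their values were seen. The members and lists were chosen with earlier results of these data known. Medians of X-linked genes and promoter motifs were not run. A few named genes were left out of the text.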

Additional observations from a re-analysis of the deposited data

Results flagged for a closer look

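The 4 libraries of animal T426 that were left out of the comparison carried spermatid chromatin transcripts. Their summed TPM over these genes was 123500 in retina, 44330 in hippocampus, 23960 in femur and 2448 in sciatic nerve, beside 144000 in testis, while the 54 other libraries had 5.66 to 547.2 (median 74.3). These are 85.8%, 30.8%, 16.6% and 1.7% of the testis value. Tnp1 stood at 20060 TPM in the retina library, above the 10770 TPM of testis. Genes of testis somatic cells were found there too: Rhox8 stood at 72.2 TPM in the retina library, and Insl3 at 132.3 TPM, beside 604.9 and 450.9 TPM in testis. Hist1h2ba was at 0 in all 4. The other 4 libraries of T426, from duodenum, renal pelvis, liver and muscle, had sums of 32.0, 80.9, 17.5 and 276.4 TPM and were kept in the comparison. How these transcripts came to the left-out libraries was not tested.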

How the results depend on the processing

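Over all 59 genes whose log2 fold change is given or was computed for the text, no alternative reversed a direction; 1828 of the gene and setting pairs kept the call and 119 lost it. In the fit by sampled site the calls of, among others, Rpl10, Rsrp1, Cox7a2l, Ddx5, Hist2h2bb, Rnf8, Hist1h1c, Crem and Cfap43 were lost. With the 54 libraries as columns among others those of Crem, Acr, Pgk2, Rpl10, Ddx5, Hist2h2bb and Hist1h1c were lost, and with limma at both pseudocounts among others those of Cox7a2l, Ddx5, Hist2h2bb, Rnf8, Crem, Espn, Aurka and Cfap43. The number of genes called higher was 1217 with limma on log2(TPM + 0.1), and was within 1.5 times of 1997 otherwise (1942 to 2085 when each organ was left out in turn). The number called lower was 184 in the fit by sampled site and 815 with library totals alone, and 1964 to 2194 with each organ left out; the causes were not tested. The number of testis-enriched genes was 32 with all 58 other libraries, which include the 4 that hold testis transcripts, and 743 to 811 with each organ left out. With limma on log2(TPM + 1), members called higher were 2 for undifferentiated spermatogonia, 7 for differentiating spermatogonia, 1 for epididymis and 0 for cell division, and members called lower were 0 for spermatid chromatin, 0 for myoid cells, 2 for endothelium, 3 for macrophages, 1 for fat, 7 for the respiratory chain and 5 for ribosomal proteins. Without the 4 libraries of mixed content or few genes (Liver T3F, Lung T3F, Pancreas T173F, RenalPelvis T426), 5 genes of differentiating spermatogonia were called higher, 2 of macrophages lower, 1 of the respiratory chain higher and 2 lower, and 1 ribosomal protein gene lower; with all 58 libraries 4 ribosomal protein genes were lower. The shallow testis library limits all statements on genes near 0. No paired analysis was possible because testis was the only library of its animal. X-linked medians and promoter motifs were not run, for want of a named build and of sequences.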

Other observations

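Families of genes with the same start of their symbol, picked after their values were seen and without a test, showed where further calls lay, beside the 11.0% of all tested genes called higher. Of the Spata genes (named for spermatogenesis) 20 of 26 were called higher in testis, with a median log2 fold change of 7.79, and 1 lower. Of the Ttll genes, enzymes that add amino acid chains to tubulin, 10 of 13 were higher, and of the Cfap genes of cilia and flagella 18 of 25. The Ift genes of transport within cilia had 8 of 14 called higher with a smaller median of 1.78, and the Cct genes of the chaperonin that folds actin and tubulin had 4 of 8 with a median of 1.18. Of the Adam genes, membrane proteases and disintegrins, 14 of 27 were higher and 3 lower. Of the Prss serine proteases 15 of 37 were higher and 0 lower, and 12 of them were testis-enriched.

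For testis-enriched genes that were detected elsewhere, the highest other library was most often one of the eye (102 genes, 7 libraries), the ovary (97 genes, 2 libraries), the brain (80 genes, 8 libraries) or the kidney (76 genes, 6 libraries); organs with more libraries had more chances to hold it. The Pancreas T173F library, the shallowest of the other libraries with 1573234 counts and 6703 genes at 1 TPM, held the highest other value of several meiotic and germ cell genes: 1153 TPM of Dmc1, 639.7 of Pgk2, 314.1 of Gk2, 181.3 of Smc1b, 175.6 of Ddx4 and 150.1 of Msh4, beside 23.0, 918.1, 787.3, 78.3, 572.5 and 30.2 TPM in testis.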
